A study of Mus musculus with 14 samples.

Results

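Osteo-adipogenic (OA) clones and osteogenic-only (O) clones of mouse bone marrow stromal cells were compared, to ask what goes with adipogenic potential when osteogenic potential is already present. The members were taken by name, as the columns OA1, OA2, OA3, O1, O2 and O3 of a count table, and make up 6 of its 14 libraries. All cells came from femora and tibiae of adult C57Bl/6 mice with the irtTA-GBD*-TAg transgene, which gives conditional expression of large T antigen, a viral protein that keeps primary cells dividing. T antigen was induced with dexamethasone and doxycycline, and both were withdrawn for 3 days before RNA was taken, in OA and O alike. OA1, OA2, O1 and O2 each stand for 1 clone, the 2 clones of a group being from different mice. OA3 and O3 are each a mixture of further clones of the same 2 mice. P-values therefore measure the spread between these clones and mixtures, and a mean of 3 libraries does not represent 3 animals. The labels give potential from differentiation assays on the clones, while the RNA is from cells that had not been differentiated. Levels in the tripotent (OAC), adipogenic-only (A), osteo-chondrogenic (OC3) and adipo-chondrogenic (AC3) libraries of the same transgenic mice are given beside some results.

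Bone marrow stromal progenitors can become bone-forming osteoblasts or lipid-storing adipocytes. Runx2 and Sp7 (osterix) are the transcription factors that drive the osteoblast path, while Pparg and Cebpa drive the adipocyte path and Zfp423 marks cells committed to it. Stromal cells with adipogenic bias in marrow are also known as a major source of the chemokine Cxcl12, which retains blood stem cells.

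Levels are given as CPM, read counts scaled to a common library size with TMM factors. Log2 fold changes are OA minus O ± SE from edgeR, so a positive value is higher in OA. edgeR's quasi-likelihood test, the main test, passed 0 of 13896 genes at an FDR of 0.05 (0%), while 755 genes had an unadjusted p under 0.05 (5.43%). DESeq2, the second tool, called 42 genes at an adjusted p (padj) under 0.05 (0.302%), 27 higher in OA (0.194%) and 15 lower (0.108%). On simulated counts DESeq2 passed more unchanged genes than its nominal rate, and edgeR did not. A DESeq2 call is therefore written here as past DESeq2's threshold only. The OA and O ranges did not overlap for 1139 genes (8.2%), 634 with OA above O (4.56%) and 505 with OA below O (3.63%).

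2 libraries, OA2 and O1, differed most from the rest. In them the deviation from the mean library followed the GC content of genes with a Spearman rho of 0.666 and 0.522, against 0.0853 in OA1 and -0.434 to -0.472 in OA3, O2 and O3 (a description across genes). The first principal component of the 6 libraries held 60.5% of the variance and set OA2 and O1 against the rest, so it did not follow the groups. On the second, with 18% of the variance, the OA libraries lay at -26.0, -66.6 and -11.9 and the O libraries at 86.8, 8.69 and 9.02. OA3 and O3, the 2 mixtures, were the most alike pair over all tested genes (Pearson r of log2 CPM 0.969), above every pair within OA (0.829 to 0.925) or within O (0.794 to 0.938). Of the 42 DESeq2 calls, 7 held without OA2, 15 without O1, 19 without O2, 20 without OA1, 32 without O3 and 41 without OA3. Only Plin4, Ret, Ms4a4d, Ucp2 and Srpx held in all 6 of these fits. Without OA2 and O1 together, 8 of the 42 held, among them Plin4, Ret, Ms4a4d and Srpx, while Ucp2 did not (padj 0.063). Total counts were 17846135 to 25649789 in the 6 libraries.

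**Figure D1:**
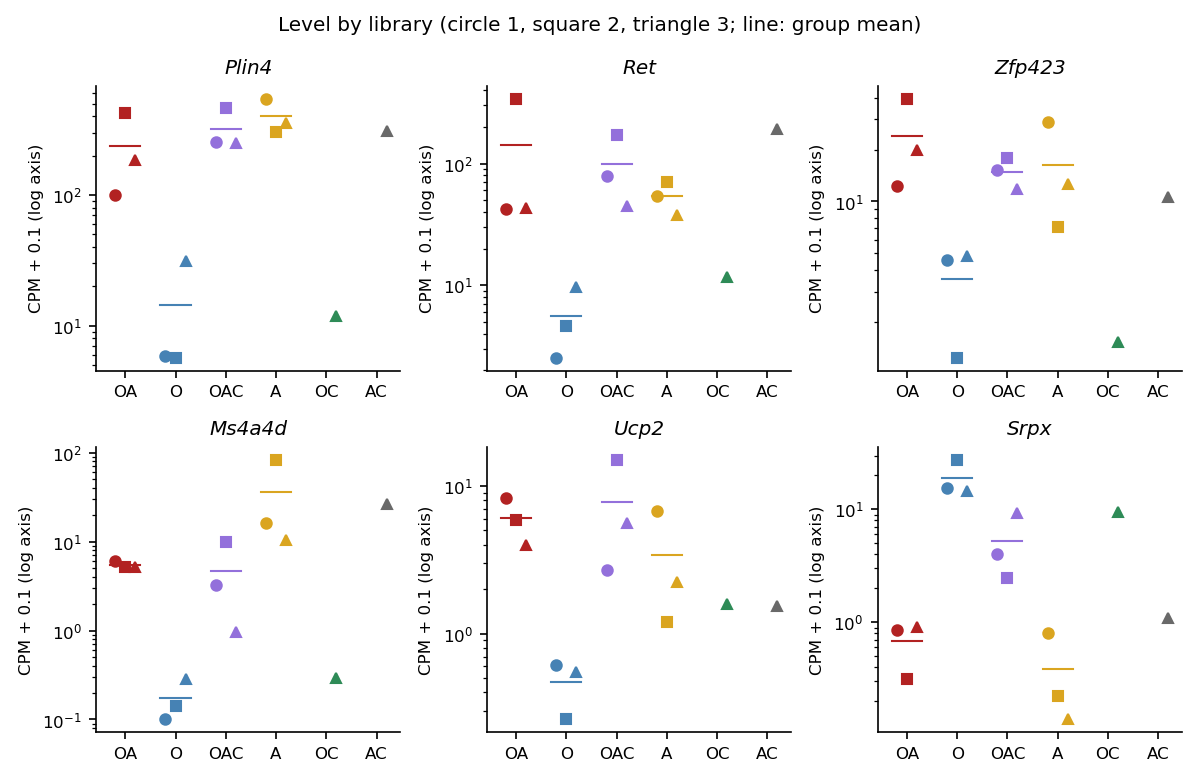
Level of 6 genes in all 14 libraries, as CPM plus 0.1 on a log axis, by group; circles, squares and triangles are numbers 1, 2 and 3, and lines are group means. Plin4, Ret, Zfp423, Ms4a4d and Ucp2 lie higher in the 3 OA than in the 3 O libraries, and Srpx lower, with no overlap.

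Plin4 (ENSMUSG00000002831), a perilipin that coats lipid droplets, was 237 ± 169.9 CPM in OA and 14.2 ± 14.8 CPM in O (SD, n = 3 each). The single values were 99, 427 and 186 CPM in OA1, OA2 and OA3 and 5.73, 5.56 and 31.2 CPM in O1, O2 and O3. Every OA library lay above every O library, the lowest OA value coming from OA1 and the highest O value from the O3 mixture. The log2 fold change was 4.06 ± 0.80 (FDR 0.851 by edgeR, padj 4.81e-05 by DESeq2), and leaving out 1 library at a time gave DESeq2 log2 fold changes of 3.32 to 5.37 with padj of 1.07e-14 to 0.0114. In the libraries outside the comparison it was 247 to 460.3 CPM in OAC, 303 to 542 CPM in A, 11.8 CPM in OC3 and 309 CPM in AC3, so OC3, the other library with osteogenic but no adipogenic potential, fell within the O range.

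Ret (ENSMUSG00000030110), the receptor tyrosine kinase for ligands of the GDNF family, was 42.2, 339 and 42.9 CPM in OA1, OA2 and OA3 and 2.42, 4.55 and 9.56 CPM in O1, O2 and O3. OA2 stood far above OA1 and OA3, and all 3 O libraries were lower. The log2 fold change was 4.67 ± 0.97 (FDR 0.851, padj 4.81e-05), and the DESeq2 value was 2.94 without OA2 (padj 0.0123). In a DESeq2 fit of the 6 libraries alone the value was 4.72 and no padj was returned. Outside the comparison Ret was 44.7 to 171 CPM in OAC, 37.9 to 70.2 CPM in A, 11.6 CPM in OC3 and 192 CPM in AC3.

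Ms4a4d (ENSMUSG00000024678), a membrane protein of the MS4A family, gave 119, 94 and 113 reads in OA1, OA2 and OA3 but 0, 1 and 5 reads in O1, O2 and O3. As levels these were 5.96, 5.04 and 5.07 CPM in OA1, OA2 and OA3 and 0, 0.0406 and 0.188 CPM in O1, O2 and O3. The 3 OA libraries were close to each other, and the O libraries were at or near 0. The log2 fold change was 5.89 ± 1.26 (FDR 0.851, padj 0.000303), with a padj of 0.000671 to 0.00748 over the fits that left out 1 library. It was 0.869 to 9.75 CPM in OAC, 10.3 to 81.7 CPM in A, 0.19 CPM in OC3 and 26.1 CPM in AC3.

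Ucp2 (ENSMUSG00000033685), a carrier of the inner mitochondrial membrane, was 8.22, 5.74 and 3.9 CPM in OA1, OA2 and OA3 and 0.509, 0.162 and 0.45 CPM in O1, O2 and O3. All values were low, and the groups did not overlap. Its log2 fold change was 3.99 ± 0.89 (FDR 0.851, padj 0.00314). Unlike Plin4 and Ret, Ucp2 did not set OC3 (1.48 CPM) apart from the A libraries (1.09 to 6.62 CPM) or AC3 (1.43 CPM).

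Srpx (ENSMUSG00000090084), which encodes a sushi repeat protein, went the other way, at 0.752, 0.214 and 0.807 CPM in OA1, OA2 and OA3 and 15.4, 27 and 14.4 CPM in O1, O2 and O3. The lowest O library was well above the highest OA library. The log2 fold change was -4.98 ± 0.98 (FDR 0.851, padj 1.13e-05), with DESeq2 values of -5.32 to -4.62 over the 6 fits without 1 library. Outside the comparison Srpx was 2.39 to 9.2 CPM in OAC, 0.0382 to 0.699 CPM in A, 9.36 CPM in OC3 and 0.992 CPM in AC3, so OAC lay between OA and O. Of its relatives, Svep1 was 146, 1036 and 125 CPM in OA and 122, 34.9 and 87.7 CPM in O (unadjusted p 0.044), and the OA2 value alone stood out.

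The 250 bases before the transcription start are shown for the genes whose DESeq2 call held in all 6 fits, since these calls did not depend on any 1 library. 4 of the 5 were matched by symbol in the RefSeq table of the build GRCm38.p6. Capitals mark matches on either strand to any of 4 short motifs. These are the core promoter element TATAAA, the element CCAAT that binds the factor NF-Y, the GC box GGGCGG bound by Sp1, and AGGTCA, the half-site of nuclear receptors such as PPAR gamma.
Plin4 promoter, chr17:56109783-56110032, minus strand: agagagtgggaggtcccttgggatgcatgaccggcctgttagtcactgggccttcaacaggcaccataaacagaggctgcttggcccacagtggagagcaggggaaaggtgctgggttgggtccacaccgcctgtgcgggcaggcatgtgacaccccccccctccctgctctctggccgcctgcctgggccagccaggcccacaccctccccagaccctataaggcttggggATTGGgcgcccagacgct
Ms4a4d promoter, chr19:11536544-11536793, plus strand: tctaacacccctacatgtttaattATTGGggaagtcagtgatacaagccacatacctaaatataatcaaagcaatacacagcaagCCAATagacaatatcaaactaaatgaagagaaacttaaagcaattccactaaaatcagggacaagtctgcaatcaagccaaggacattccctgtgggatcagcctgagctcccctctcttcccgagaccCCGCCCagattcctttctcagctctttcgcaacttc
Ucp2 promoter, chr7:100493108-100493357, plus strand: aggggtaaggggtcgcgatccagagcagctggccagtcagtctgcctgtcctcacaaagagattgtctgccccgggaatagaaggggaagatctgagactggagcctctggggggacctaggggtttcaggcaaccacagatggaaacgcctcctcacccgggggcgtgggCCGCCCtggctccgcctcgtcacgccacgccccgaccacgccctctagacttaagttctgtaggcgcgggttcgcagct
Srpx promoter, chrX:10117641-10117890, minus strand: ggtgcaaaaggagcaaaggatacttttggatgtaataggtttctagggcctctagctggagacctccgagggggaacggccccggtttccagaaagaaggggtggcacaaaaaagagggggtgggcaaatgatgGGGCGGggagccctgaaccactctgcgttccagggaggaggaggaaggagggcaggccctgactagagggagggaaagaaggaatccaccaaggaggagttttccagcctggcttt

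Among 32851 such windows in the table, the CCAAT element occurs in 33.8%, the GC box in 32.7%, the half-site in 14% and the TATAAA element in 12.4%. The Plin4 window holds 1 CCAAT match, the Ms4a4d window 2 CCAAT matches and 1 GC box, and the Ucp2 and Srpx windows 1 GC box each. None of the 4 windows holds TATAAA or the half-site in these letters. Their GC content differs, at 65.2% for Plin4, 63.6% for Ucp2, 56.8% for Srpx and 43.2% for Ms4a4d.

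Of 18 adipogenic transcription factors, 17 were tested. 13 had a higher fitted mean in OA and 4 a lower one, with a median log2 fold change of 0.54, where over all genes 43% were higher and the median was -0.075. Unadjusted edgeR p-values were under 0.05 for 5 with the higher mean in OA (3.2% of all genes) and 1 with the lower (2.24%), and 2, Zfp423 and Nr1h3, passed DESeq2's threshold. Zfp423 (ENSMUSG00000045333) was 12.1, 39.2 and 19.9 CPM in OA1, OA2 and OA3 and 4.46, 1.14 and 4.73 CPM in O1, O2 and O3, with no overlap. Its log2 fold change was 2.79 ± 0.69 (FDR 0.851, padj 0.018), and the DESeq2 call was lost without OA2 (padj 0.385) and without O2 (padj 0.061). The call was also lost in a fit of only the 6 OA and O libraries (padj 0.078). OC3 held 1.44 CPM, near the lowest O library, against 11.7 to 17.7 in OAC and 7.05 to 28.8 in A.

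Nr1h3, the oxysterol receptor LXR alpha, was 5.41, 13.5 and 2.06 CPM in OA and 0.382, 0.406 and 1.39 CPM in O (3.24 ± 0.81, padj 0.0159). The OA3 value lay close to O3, and the call was lost without OA2 (padj 0.441), O1 (padj 0.14) or O2 (padj 0.0789). Prdm16, a co-regulator of brown and beige fat genes, was 14, 30.5 and 9.55 CPM in OA and 3.76, 5.03 and 6.64 CPM in O, with no overlap but past neither threshold (padj 0.175). The 2 master regulators differed less. Pparg was 10.4, 27.3 and 15.9 CPM in OA and 6.11, 12.7 and 7.54 CPM in O, where O2 exceeded OA1 (1.02 ± 0.47, FDR 0.913). Cebpa was 39.6, 95.2 and 31.6 CPM in OA and 35, 14.1 and 12.6 CPM in O, where O1 exceeded OA3 (1.43 ± 0.57, FDR 0.902). Both were past neither threshold, and the A libraries held 28.3 to 55.2 CPM of Pparg and 47.2 to 90 CPM of Cebpa.

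Genes that restrain adipogenesis were split, 5 of 9 tested members higher in OA. Klf2, which represses Pparg, was 32.1, 61.7 and 34.4 CPM in OA and 12, 21.4 and 10.9 CPM in O, higher in every OA library (1.53 ± 0.42, unadjusted p 0.00399, padj 0.0958). Dlk1, the preadipocyte factor lost on differentiation, was low throughout but not overlapping, at 1.7, 2.95 and 1.35 CPM in OA and 0.127, 0.0812 and 1.01 CPM in O (padj 0.326). Ddit3, a stress factor that blocks C/EBP proteins, was 74.9, 80.5 and 128 CPM in OA and 289, 127 and 154 CPM in O and highest in O1 (padj 0.35).

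Of 27 genes for fatty acid uptake, storage and lipolysis, 23 were tested, 15 higher and 8 lower in OA (median 0.17). Over all genes 43% were higher and the median was -0.075. Plin4 was the 1 member past DESeq2's threshold. The ranges did not overlap for 5 members higher in OA (4.56% of all genes), namely Plin4, Lpl, Pnpla2, G0s2 and Gpd1. They also did not overlap for 1 lower member, Fabp5 (3.63% of all genes). Lpl, the lipoprotein lipase that releases fatty acids from circulating triglyceride, was 46.2, 41.3 and 56.1 CPM in OA1, OA2 and OA3 and 4.84, 0.243 and 11.4 CPM in O1, O2 and O3. The 3 OA values were close together and the O values were spread from near 0 to 11.4 (3.12 ± 0.95, FDR 0.851, padj 0.0694). Lpl came past DESeq2's threshold without O2 (padj 0.0126), without O3 (0.00175) and with a correction for GC content (0.0353). It did not without OA1 (0.213), OA2 (0.336), OA3 (0.0885) or O1 (0.326). OC3 was again in the O range (3.68 CPM), and A and AC3 were above OA (114 to 246 and 693 CPM).

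Pnpla2, the adipose triglyceride lipase, was 19.3, 38.6 and 17.2 CPM in OA and 12, 6.57 and 17 CPM in O (1.08 ± 0.39, FDR 0.851), with OA3 and O3 nearly equal. G0s2, its inhibitor, was 4.91, 4.66 and 6.01 CPM in OA and 0.255, 0.0812 and 2.03 CPM in O (2.69 ± 1.23, FDR 0.913). Both fatty acid binding proteins in the list had a lower fitted mean in OA, and neither passed a threshold. Fabp4 was 34.1, 4.5 and 35.6 CPM in OA and 59.6, 85.4 and 27.5 CPM in O (-1.22 ± 0.86, FDR 0.96), with the groups overlapping. Fabp5 was 154, 52.5 and 192 CPM in OA and 216, 570.4 and 199 CPM in O (-1.30 ± 0.69, FDR 0.947), where O3 lay only just above OA3. Genes of the mature fat cell were scarce in both groups, and only 5 of 10 passed the expression filter. Of the 5, 3 had a higher fitted mean in OA and 2 a lower one (43% of all genes were higher). Summed over the 5, the level was 11.1, 13.8 and 6.1 CPM in OA1, OA2 and OA3. It was 24.3, 1.38 and 7.39 CPM in O1, O2 and O3, so O1 was highest. Adipoq, which encodes adiponectin, was 6.86, 3.97 and 1.7 CPM in OA and 3.06, 0 and 2.7 CPM in O, and Cfd, which encodes adipsin, was 1.25, 2.2 and 1.03 CPM in OA and 0.764, 0 and 0.0375 CPM in O. Neither passed a threshold (padj 0.961 and 0.793).

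**Figure D2:**
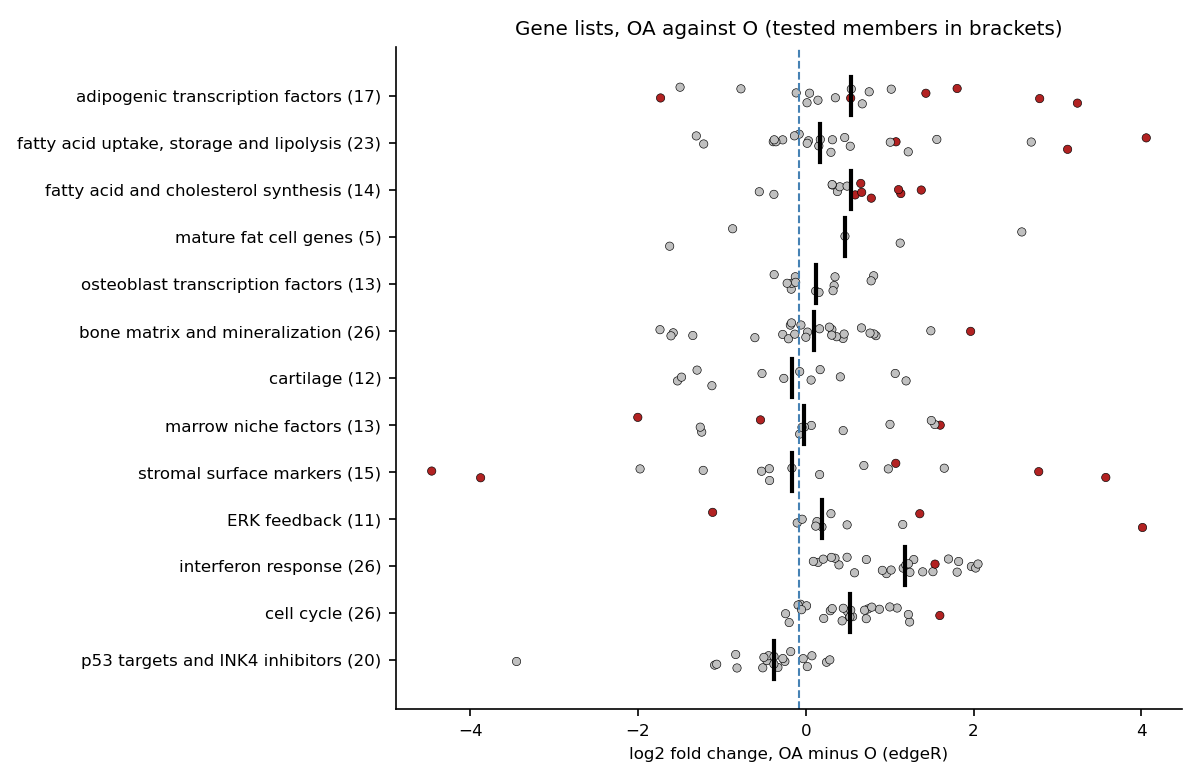
Log2 fold change, OA minus O by edgeR, of the tested members of 13 gene lists; red points have an unadjusted p under 0.05, black bars are list medians and the dashed line is the median of all tested genes (-0.075). Fatty acid and cholesterol synthesis genes lie mostly to the right, and osteoblast lists lie on both sides.

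Genes of fatty acid and cholesterol synthesis lay mostly higher in OA. Of 14 tested, 12 had a higher fitted mean in OA, with a median log2 fold change of 0.54. 7 had an unadjusted edgeR p under 0.05 with the higher mean in OA (among them Insig1, Fasn, Sqle, Acaca, Fdps and Scd2), where the background was 3.2% of genes. None passed edgeR's FDR or DESeq2's threshold. The ranges did not overlap for 6, all with OA above O (4.56% of all genes). Without any 1 library the median stayed at 0.40 to 0.71 and 11 or 12 of the 14 stayed higher, and without OA2 and O1 together the median was 0.34.

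Insig1, which holds the sterol-sensing SREBP complex in the endoplasmic reticulum, was 103, 119 and 46.1 CPM in OA1, OA2 and OA3 and 25, 44.7 and 33.5 CPM in O1, O2 and O3 (1.38 ± 0.41, FDR 0.851). OA3 was lower than OA1 and OA2 and only slightly above O2. Fasn, the fatty acid synthase, was 579.5, 1004 and 484 CPM in OA and 349, 473 and 381 CPM in O (0.78 ± 0.31, FDR 0.902). OA2 was highest, and OA3 barely exceeded O2. Sqle, squalene epoxidase of the sterol pathway, was 157, 176 and 119.7 CPM in OA and 97.7, 86.5 and 101 CPM in O (0.67 ± 0.27, FDR 0.902), with all OA libraries above all O libraries.

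**Figure D3:**
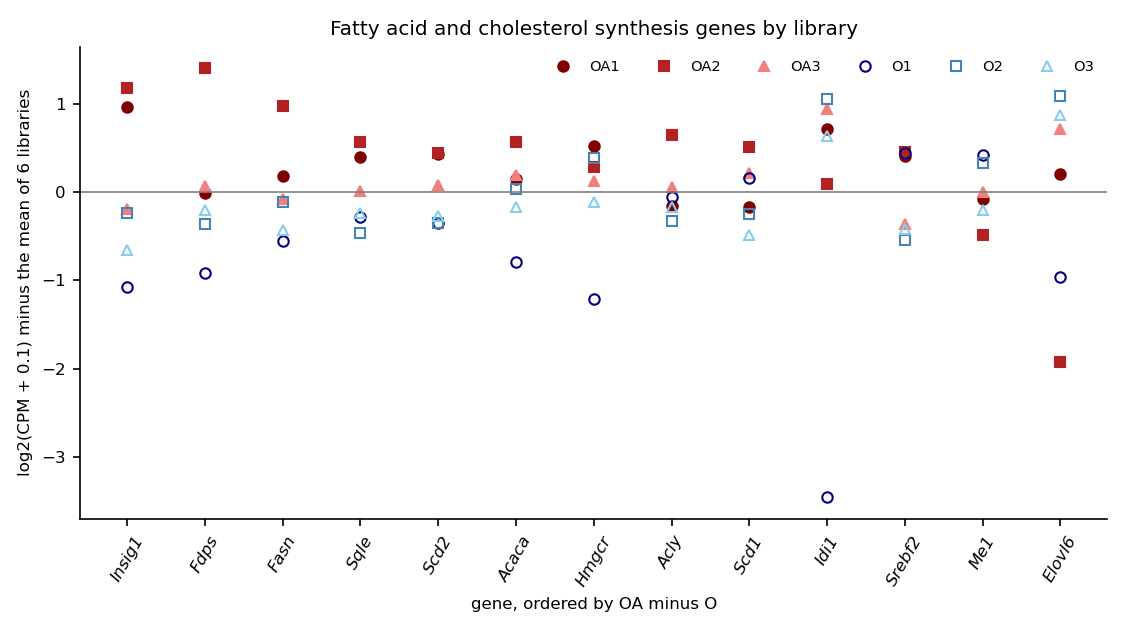
13 fatty acid and cholesterol synthesis genes by library, as log2(CPM + 0.1) minus the mean of the 6 libraries; filled symbols are OA and open symbols O. Insig1, Fdps, Fasn, Sqle, Scd2 and Acaca have every OA point above every O point, and OA2 has the highest point for Fdps and Fasn, among others.

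Ret was the only member of its receptor and ligand list higher in OA past DESeq2's threshold, and 5 of the 7 tested members had a lower fitted mean. Gfra2, the co-receptor for neurturin, was 14.6, 0.697 and 3.05 CPM in OA and 139, 26.4 and 20.1 CPM in O, without overlap and with OA lower (-3.33 ± 1.58, FDR 0.913). Of 11 feedback genes of the ERK pathway, which acts downstream of receptor tyrosine kinases, 8 were higher in OA. Spry4, an inhibitor of this pathway, was 2.56, 15.8 and 4.48 CPM in OA1, OA2 and OA3 and 0.255, 0.446 and 0.675 CPM in O1, O2 and O3. The groups did not overlap (4.01 ± 0.83, FDR 0.851, padj 0.000665), and the DESeq2 call was lost without OA2, which held the highest value of both Spry4 and Ret (padj 0.0814). Spry1 was 20.9, 55.8 and 15.8 CPM in OA and 6.62, 14.2 and 15.2 CPM in O and highest in OA2 as well (1.36 ± 0.52, FDR 0.872). Dusp6, the ERK phosphatase, lay in the opposite direction at 9.97, 8.42 and 8.03 CPM in OA and 21.5, 14.2 and 21.4 CPM in O, with every OA library below every O library (-1.11 ± 0.37, FDR 0.851).

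The 10 genes named by rank among the DESeq2 calls higher in OA were Plin4, Ret, Zfp423 and a further 7, 6 of which lost the call without OA2. Col15a1, a basement membrane collagen, was 141, 232 and 235 CPM in OA1, OA2 and OA3 and 2.29, 42.2 and 10.5 CPM in O1, O2 and O3. All OA values exceeded all O values several times over (3.47 ± 0.86, padj 0.00763), although the call was lost without OA2 (padj 0.105). Dpep1, a membrane dipeptidase, was 28.3, 205 and 32.8 CPM in OA and 4.58, 0.974 and 2.85 CPM in O (5.00 ± 1.20, padj 0.000665, 0.176 without OA2). Pde2a, a phosphodiesterase stimulated by cyclic GMP, was 55.9, 173 and 48.8 CPM in OA and 1.85, 19.2 and 10.1 CPM in O (3.15 ± 0.78, padj 0.0105, 0.333 without OA2). Adam23, a membrane protein of the ADAM family, was 117, 45 and 11.3 CPM in OA and 1.08, 1.62 and 7.8 CPM in O, and its call was lost without OA1, the highest library (padj 0.00255 with it and 0.0998 without).

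The remaining 3 lost their call in more of the fits that left out 1 library. Atp9a, a P4-type ATPase of membranes, was 25.2, 46.7 and 10.9 CPM in OA and 0.509, 1.87 and 3.64 CPM in O (padj 0.0116), and lost the call without OA1 (padj 0.0523), OA2 (0.333), O1 (0.103) or O2 (0.0519). Epb4.1l4b was 1.05, 26.2 and 1.7 CPM in OA and 0.637, 0.284 and 0.788 CPM in O, so OA2 alone was high (padj 0.0489), and the call was lost without OA2 (padj 1), O1 (0.201), O2 (0.154) or O3 (0.0554). H19, an imprinted noncoding RNA, was 5.66, 66.3 and 8.39 CPM in OA and 0, 0 and 1.61 CPM in O, again with OA2 far above the others (padj 0.0398). Its call was lost without OA1 (padj 0.0523), OA2 (0.966), O1 (0.14) or O2 (0.06). O1 and O2 gave no H19 read, so its fitted log2 fold change has little precision. The DESeq2 value was 5.65, and 3.69 to 11.5 when 1 library was left out.

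**Figure D4:**
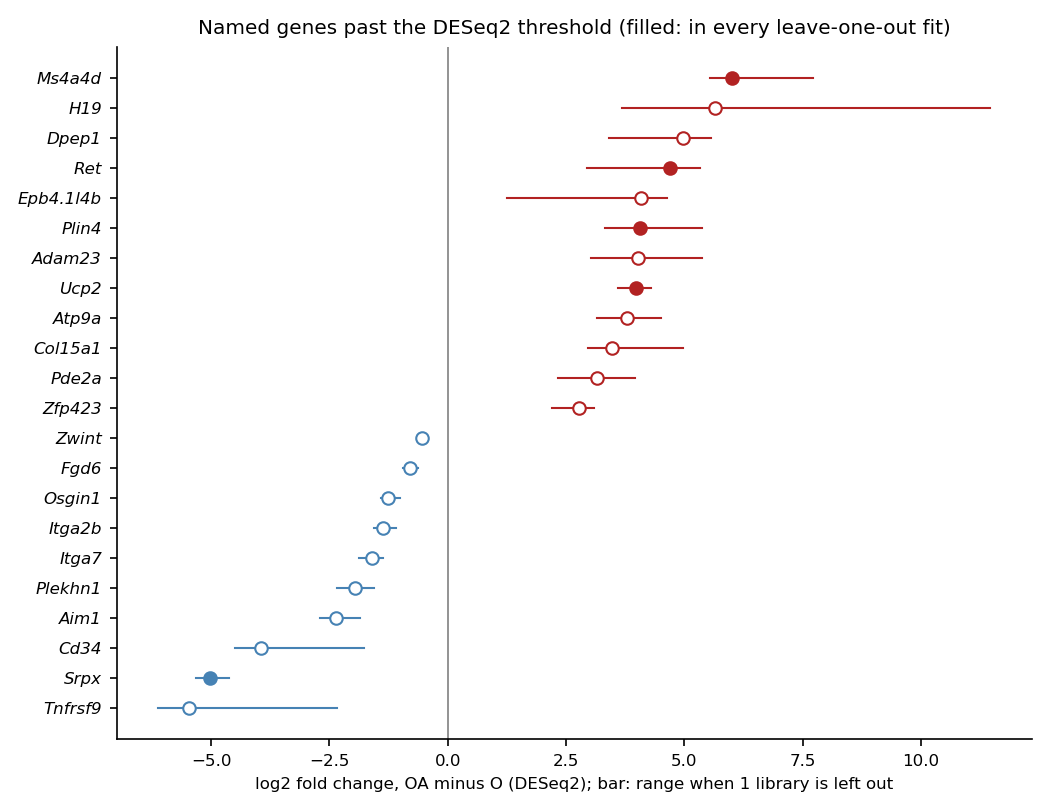
DESeq2 log2 fold change, OA minus O, of 22 named genes past DESeq2's threshold; bars span the values when 1 of the 6 libraries is left out, and filled points are genes whose call held each time. Only Ms4a4d, Ret, Plin4, Ucp2 and Srpx are filled, and no bar crosses 0.

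Among genes lower in OA, Cd34, a sialomucin of blood stem, vessel and some stromal cells, was 1.9, 1.07 and 3.54 CPM in OA1, OA2 and OA3 and 81.3, 3.86 and 11.1 CPM in O1, O2 and O3. The groups did not overlap, but O1 held most of the reads (-3.88 ± 1.18, padj 0.0449), and the call was lost without O1 (padj 0.554), OA1 (0.166) or OA2 (0.383). Tnfrsf9, a receptor of activated immune cells also called CD137, was 0.802, 0.214 and 0.359 CPM in OA and 53, 1.38 and 3.26 CPM in O, with O1 again far above O2 and O3 (padj 0.0312, 0.587 without O1 and 0.328 without OA2). Blood cell markers did not share one pattern. Lyz2, the macrophage lysozyme, was highest in O1 as these 2 genes were, and gave 585 reads in O1, 62 in O2 and 223 in O3 against 6, 26 and 35 in OA1, OA2 and OA3. Cd68, a lysosomal protein of macrophages, gave 114, 83 and 176 reads in O1, O2 and O3 against 60, 45 and 57 in OA1, OA2 and OA3. Scaled for library size, Cd68 was 7.26, 3.37 and 6.6 CPM in O1, O2 and O3, so it too was highest in O1. It was 3.01, 2.41 and 2.56 CPM in OA1, OA2 and OA3. Csf1r, the receptor for the macrophage growth factor CSF1, overlapped between the groups, at 99, 58 and 28 reads in OA1, OA2 and OA3 and 64, 35 and 14 in O1, O2 and O3. The pan-leukocyte marker Ptprc was at 1 read in O3 and 0 in the other 5 libraries, and 7 of the 10 blood markers in the table stayed under 20 reads in all 6. Summed reads of the 10, not scaled for library size, were 131 to 167 in OA and 187 to 778 in O, and Lyz2 held most of the highest sum. As CPM, the 3 tested members summed to 5.38 to 8.27 in OA and 7.31 to 48.6 in O, so the ranges overlapped. The part of the blood marker reads in the Cd34 and Tnfrsf9 values was not tested.

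The other 7 genes named by rank as lower in OA differed by smaller amounts and with closer libraries. Osgin1, which responds to oxidative stress, was 11.6, 9.17 and 11.1 CPM in OA and 31.7, 19.4 and 23.7 CPM in O (-1.23 ± 0.28, padj 0.00582), losing its call without OA2 (padj 0.191) or O1 (0.0782). Itga2b, the integrin alpha subunit best known from platelets, was 6.56, 3.97 and 7.53 CPM in OA and 19.8, 12.5 and 13.2 CPM in O (-1.33 ± 0.32, padj 0.0092), losing it without OA2 (padj 0.161) or O1 (0.103). Itga7, a laminin-binding integrin subunit, was 4.66, 9.65 and 7.13 CPM in OA and 25.8, 22.9 and 15.3 CPM in O (-1.58 ± 0.37, padj 0.0239), losing it without OA1 (padj 0.141), O1 (0.294) or O2 (0.0987). For each of the 3, all OA values lay below all O values.

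Plekhn1 was 3.26, 3.48 and 6.37 CPM in OA and 24.1, 12.3 and 13.6 CPM in O (padj 0.0116), and its call was lost without OA1 (padj 0.101), OA2 (0.245) or O1 (0.198). Aim1 was 21.6, 21.8 and 33.3 CPM in OA and 196, 124 and 62.5 CPM in O (padj 0.0178), with the call lost without OA1 (padj 0.121), OA2 (0.245), O1 (0.301) or O2 (0.0573). Fgd6, an exchange factor for the GTPase Cdc42, was 12.4, 8.9 and 14.3 CPM in OA and 20.5, 18.4 and 22.1 CPM in O (padj 0.0466). Zwint, a kinetochore protein, was 90.5, 86.5 and 104 CPM in OA and 129, 133 and 139 CPM in O (padj 0.0489). Both lost their call without any 1 library except OA3 (padj up to 0.385 for Fgd6 and 0.596 for Zwint). With a correction for GC content the DESeq2 value of Zwint went from -0.54 to -0.03 (padj 0.997) and that of Fgd6 from -0.80 to -0.70 (padj 0.0955).

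Marrow niche factors did not lie to one side, with 6 of 13 tested members higher in OA. Cxcl12 was the member past DESeq2's threshold, at 1487, 1999 and 1643 CPM in OA1, OA2 and OA3 and 643, 399.6 and 646 CPM in O1, O2 and O3. The lowest OA library stood clear of the highest O library, and spread within each group was small (1.60 ± 0.35, FDR 0.851, padj 0.0159). The DESeq2 log2 fold change stayed at 1.38 to 1.73 when 1 library was left out, but the call was lost without OA2 (padj 0.268) or O2 (0.0789). Outside the comparison Cxcl12 was 2282 to 4236 CPM in OAC, 2413 to 5130.5 CPM in A, 291 CPM in OC3 and 3672 CPM in AC3, so OC3 lay below O and the A libraries above OA.

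Clec11a, the osteogenic factor osteolectin, was 35.6, 6.33 and 55.2 CPM in OA and 252, 27.4 and 109.7 CPM in O, with OA1 and OA3 above O2 (-2.0 ± 0.80, FDR 0.902). It was 0.916 to 1.58 CPM in A. Vcam1, an adhesion molecule for blood cells, was 41.2, 59.8 and 43.3 CPM in OA and 84.9, 66.4 and 58.4 CPM in O, with OA2 above O3 (-0.54 ± 0.24, FDR 0.913). Jag1, a Notch ligand, was 23.8, 41.4 and 20.1 CPM in OA and 2.86, 7.51 and 19.7 CPM in O, where OA3 and O3, the 2 mixtures, were nearly equal (1.50 ± 0.77, FDR 0.945).

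Stromal surface markers held large differences in both directions around a median of -0.16, with 7 of 15 higher in OA. The median was -0.69 without OA3 and 0.36 without OA1. Unadjusted edgeR p-values were under 0.05 for 3 members with the higher mean in OA (3.2% of all genes), Pdgfrb, Eng and Cspg4. They were also under 0.05 for 2 with the lower mean (2.24% of all genes), Cd34 (described above) and Pdpn. Pdpn, podoplanin, a mucin-type protein of lymphatic vessels and some stromal cells, was 0.0501, 0.107 and 1.44 CPM in OA and 22.8, 0.162 and 12.9 CPM in O (-4.46 ± 1.69, FDR 0.872), high in O1 and O3 but not in O2, which lay below OA3. Pdgfrb, the PDGF receptor beta of perivascular stroma, was 562, 1048 and 502 CPM in OA1, OA2 and OA3 and 297, 369.9 and 336 CPM in O1, O2 and O3. Every OA library exceeded every O library (1.07 ± 0.30, FDR 0.851, padj 0.122). Eng, endoglin, a co-receptor for TGF-beta ligands, was 88.6, 193 and 104 CPM in OA1, OA2 and OA3 and 2.99, 1.99 and 27.2 CPM in O1, O2 and O3 (3.58 ± 1.17, FDR 0.851, padj 0.0661). O3 was intermediate between the other O libraries and OA, and Eng was 1.82 to 2.39 CPM in A, so here A resembled O1 and O2 in level. Cspg4, the NG2 proteoglycan of pericytes, was low at 10.4, 1.39 and 3.68 CPM in OA and 1.08, 0.731 and 0.45 CPM in O, with OA above O (2.78 ± 1.05, FDR 0.872).

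Osteoblast genes separated libraries within each group rather than OA from O. Of 13 osteoblast transcription factors, 7 were higher and 6 lower in OA (median 0.12), none had an unadjusted p under 0.05, and none passed DESeq2's threshold. Sp7 was 216, 13.5 and 193 CPM in OA1, OA2 and OA3 and 22.3, 398 and 54.4 CPM in O1, O2 and O3. OA2, O1 and O3 were low and OA1, OA3 and O2 high, so each group spanned more than the difference of the means (-0.17 ± 1.24, FDR 0.99). Runx2 was 168, 56 and 121 CPM in OA and 76.8, 218 and 93.8 CPM in O (-0.17 ± 0.48, FDR 0.971), with the lowest value in OA2 and the highest in O2. Alpl, the tissue-nonspecific alkaline phosphatase that starts mineralization, was 1112, 223 and 1438 CPM in OA and 159, 2692 and 502 CPM in O (-0.27 ± 1.01, FDR 0.974), in the same order of libraries as Sp7 but for the exchange of OA1 and OA3 and of OA2 and O1. A libraries held 0.486 to 1.03 CPM of Sp7 and 45.6 to 146 CPM of Alpl.

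Of 26 tested bone matrix and mineralization genes, 15 were higher in OA (median 0.09), and 1 had an unadjusted p under 0.05 (5.43% of all genes). That gene, Spp1, which encodes osteopontin, was 519, 319 and 1241 CPM in OA1, OA2 and OA3 and 162, 143 and 227 CPM in O1, O2 and O3, with all OA above all O libraries (1.97 ± 0.54, FDR 0.851, padj 0.0683). Spp1 was 914 to 1233 CPM in A, 643 to 2062 CPM in OAC and 571 CPM in OC3, so OC3, which also lacks adipogenic potential, lay above all O libraries and above OA1 and OA2. Bglap, which encodes osteocalcin and has near-identical copies that the counting may not separate, was 1.35, 0.965 and 5.52 CPM in OA and 2.86, 14.7 and 2.36 CPM in O (-1.35 ± 1.12, FDR 0.971). Ibsp (bone sialoprotein), Panx3 (a pannexin channel) and Pth1r (the parathyroid hormone receptor), chosen after their values were seen, showed the split of libraries most plainly. Ibsp was 316, 1.02 and 1520.0 CPM in OA and 1.85, 817 and 209 CPM in O, Panx3 was 31.9, 0.322 and 97.8 CPM in OA and 0.70, 89.6 and 10.4 CPM in O and Pth1r was 149, 18.2 and 139.5 CPM in OA and 3.12, 270.5 and 32.8 CPM in O. OA2 and O1, the 2 libraries with the strong GC trend, were the lowest for all 3, and the part of that trend in these values was not tested.

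**Figure D5:**
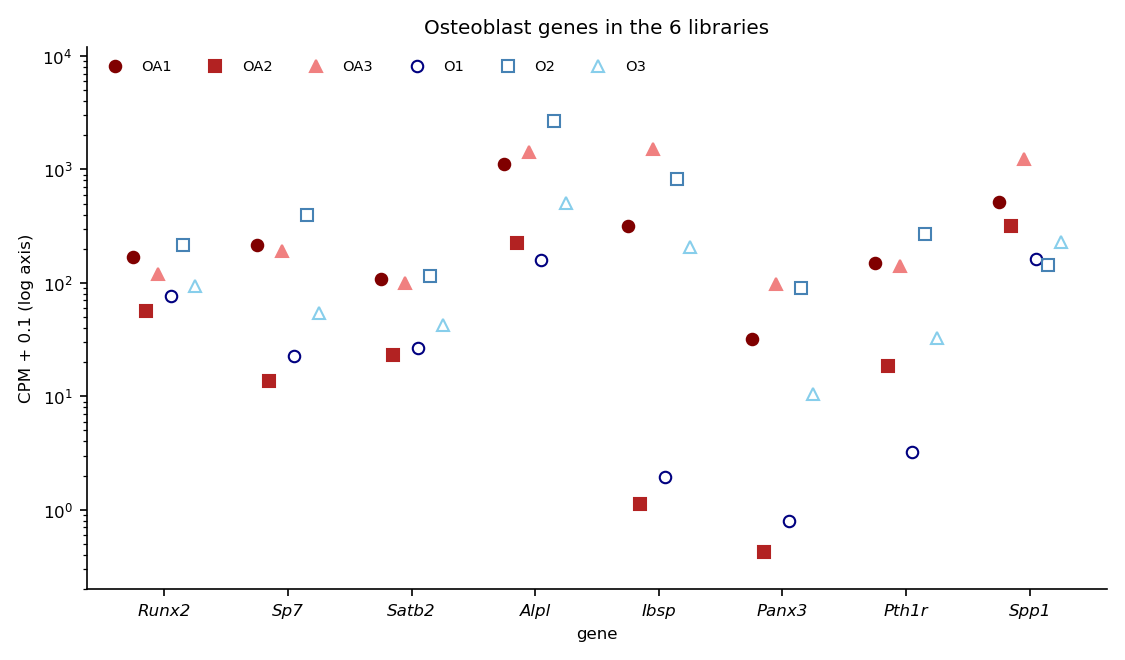
Osteoblast genes in the 6 libraries, as CPM plus 0.1 on a log axis; filled symbols are OA and open symbols O, with numbers 1, 2 and 3 as circles, squares and triangles. OA2 and O1 are the 2 lowest for every gene but Spp1, where all OA points lie above all O points.

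Cartilage genes were tested for 12 of 20 listed, and none had an unadjusted p under 0.05. Sox9, the chondrogenic transcription factor, was 11.7, 24.8 and 23.9 CPM in OA and 16.7, 27.4 and 13.6 CPM in O (0.06 ± 0.48, FDR 0.991). Col2a1, the main collagen of cartilage, was 16.2, 277 and 85.4 CPM in OA and 27.8, 128 and 299 CPM in O (-0.26 ± 1.17, FDR 0.98), with a wide spread in each group. Acan was below the expression filter.

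Secreted Wnt antagonists were split, with 3 of 7 higher in OA. Sfrp1, which binds Wnt ligands, was 162, 134 and 50.3 CPM in OA1, OA2 and OA3 and 0.127, 5.68 and 16.4 CPM in O1, O2 and O3, with no overlap (3.95 ± 1.41, FDR 0.851, padj 0.106). Sfrp1 was 40.3 to 679 CPM in OAC, 84 to 854 CPM in A, 8.53 CPM in OC3 and 511 CPM in AC3. Among Wnt feedback targets, Notum, an enzyme that inactivates Wnt ligands, was 5.26, 0.858 and 4.39 CPM in OA and 11, 17.2 and 10.9 CPM in O, with OA below O (-1.89 ± 0.68, FDR 0.851), while Nkd2, an intracellular inhibitor, was 64.6, 68.8 and 57.5 CPM in OA and 5.41, 19.1 and 35.6 CPM in O, with OA above O (1.66 ± 0.70, FDR 0.902). None of the 3 passed a threshold. In the fibrillar matrix list 15 of 22 were higher in OA. Bgn, the proteoglycan biglycan, was 3916, 9530.0 and 4556 CPM in OA and 2522, 2876 and 3553 CPM in O (1.01 ± 0.36, FDR 0.851), and Col6a3, a chain of collagen VI, was 2881, 6099.9 and 2621 CPM in OA and 2199, 2599 and 1441 CPM in O (0.90 ± 0.37, FDR 0.902). For both, OA2 was highest and every OA library was above every O library.

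All 26 tested interferon response genes had a higher fitted mean in OA (median 1.18), yet the groups overlapped for every one and none passed a threshold. Summed over the list, the level was 1072, 2437 and 638 CPM in OA1, OA2 and OA3 and 486, 292 and 955 CPM in O1, O2 and O3, so O3 exceeded OA3. Bst2, the antiviral protein tetherin, was 149, 439 and 56.6 CPM in OA and 52.2, 18.6 and 111 CPM in O (1.82 ± 0.89, FDR 0.92). Without OA2 and O1 the list median was 0.35 and 22 of 26 genes were higher. The A libraries ranged from 559.6 to 3568 CPM in sum, wider than the OA libraries.

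Cell cycle genes were higher in OA for 21 of 26 (median 0.52). Their summed level was 548 CPM in O1 against 1782 to 3410.0 CPM in the other 5 libraries, and without O1 14 of 26 were higher, with a median of 0.06. Without OA1 it was 17 of 26, and without OA2 and O1 together 19 of 26 with a median of 0.24. Plk1, a mitotic kinase, was 71.3, 64.1 and 34.3 CPM in OA and 3.57, 29 and 23.4 CPM in O (1.60 ± 0.62, FDR 0.894). Targets of p53 and INK4 inhibitors were lower in OA for 16 of 20 (median -0.38), and without O1 8 of the 20 were higher (median -0.17). Cdkn1a, the cyclin-dependent kinase inhibitor p21, was 467, 908 and 658 CPM in OA and 2149.5, 577 and 859.8 CPM in O (-0.82 ± 0.46, FDR 0.947). Large T antigen binds p53, and how much of it remained in each library was not measured here.

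Most endothelial and skeletal muscle markers were at or near 0, and fewer of the Schwann and neural markers were. Of 12 endothelial markers 8 stayed under 20 reads in all 6 libraries, among them Pecam1 and Cdh5, while Flt1, a VEGF receptor, reached 608 reads in O3. Reads of the 12, not scaled for library size, summed to 401 to 502 in OA and 503 to 1006 in O. As CPM, the 4 tested members summed to 18 to 25.8 in OA and 20.6 to 36.5 in O, so the ranges overlapped. Of 9 skeletal muscle markers 7 stayed under 20 reads in all 6 libraries, the exceptions being Acta1, a muscle actin, with 295 to 954 reads in OA and 99 to 553 in O, and the transcription factor Pax3, with 74 to 235 reads in OA and 1 to 217 in O. Of 9 Schwann and neural markers 4 did, and the 9 summed to 522 to 2172 reads in OA and 620 to 1160 in O, mostly from Tubb3, a tubulin, and S100b, a calcium-binding protein. Smooth muscle contractile genes were abundant, as is usual for cultured stroma, at 7900.0 to 25790.0 CPM in sum in OA and 6248 to 18160.0 CPM in O, highest in OA2 and O1.

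The 8 libraries outside the comparison gave a look at the same genes in other clones. Counts of the OAC and A libraries entered the shared dispersion of the fits but not the OA and O means. OC3 and AC3, each alone in its group, gave no estimate of spread. OC3 is the only one of the 8 without adipogenic potential. Of the 27 genes past DESeq2's threshold and higher in OA, 19 were lower in OC3 than in all 7 OAC, A and AC3 libraries, where 16.4% of all tested genes were. They included Plin4, Ret, Zfp423, Ms4a4d, Dpep1, Pde2a, Nr1h3, Spry4 and Cxcl12, but not Ucp2, Col15a1, Adam23, Atp9a, H19 or Epb4.1l4b. Of the 15 genes lower in OA, 7 were higher in OC3 than in all 7, among them Srpx, Cd34, Aim1 and Osgin1, against 15.7% of tested genes. For Srpx the margin was small, with 9.36 CPM in OC3 and 9.2 CPM in OAC3, and OC3 lay below all O libraries. OC3 is a single mixture of clones from the same 2 mice, so the comparison with OC3 has no replicate. The rho with GC content was -0.551 in OC3 and -0.551 to 0.359 in the 7 libraries.

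Against A, which shares the OA libraries with the comparison above, edgeR passed 1 gene of 13896 (0.0072%), and no gene named here. The log2 difference of OA minus A was -0.75 ± 0.71 for Plin4, 1.39 ± 0.85 for Ret, 0.56 ± 0.64 for Zfp423 and 1.05 ± 0.91 for Srpx. Each is smaller than its counterpart against O (4.06 ± 0.80, 4.67 ± 0.97, 2.79 ± 0.69 and -4.98 ± 0.98), and the difference between the 2 contrasts was not tested. For Sp7 it was the reverse, at 7.61 ± 1.69 against A and -0.17 ± 1.24 against O. Lpl gave an OA minus A value of -1.95 ± 0.90.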

How the data were processed

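Poly(A) RNA was sequenced strand-specifically, per the labels' protocols. Counts are the whole-number reads per gene in the table deposited by the authors (23331 genes, 14 libraries). CASAVA 1.8.0, bedtools 2.11 and build mm9 are named in the submitters' processing notes. How reads were aligned and assigned to strands is not given here, so overlapping, antisense and near-identical genes are uncertain. Total counts were 16888190 to 26076539 per library. Genes reaching 1 CPM in 3 or more libraries (13896) were tested with edgeR 4.0.16 (R 4.3.3, quasi-likelihood F test, robust, TMM) on all 14 libraries with 6 group means, contrast OA minus O, Benjamini-Hochberg over all genes. The SE was derived as the size of the log2 fold change over the square root of F. DESeq2 1.42.0 (Wald test) was the second tool, and gave no padj for 21 genes. Both were tested on simulated data. Alternatives were RLE factors, no filter, only the 6 libraries, leaving out libraries, a replicate block and a GC correction (GENCODE vM21, a value for 96.5% of genes). Named genes were the 4 markers, 11 lineage genes, up to 10 DESeq2 calls per direction (mean of at least 5 CPM, no overlap), calls kept without any 1 library, and up to 4 members per list with the lowest p. Some of the latter are not described. The members, lists and rules were chosen with earlier results of these data known.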

Additional observations from a re-analysis of the deposited data

How the results depend on the processing

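edgeR passed 0 genes at an FDR of 0.05 under every alternative run with it, while DESeq2 in its place called 42. The DESeq2 count was 22 with only the 6 OA and O libraries, 9 without OA2 and O1 (8 of them among the 42), 260 without the pools OA3 and O3, and 67 with a correction for GC content. Leaving out 1 library gave 9 (without OA2) to 304 (without OA3). With the replicate number as a block, which the data did not support as a pairing (correlations of the deviations of same-numbered libraries of -0.31, -0.585 and 0.512), DESeq2 called 76 genes, and 125 with the block and the GC correction. The cause of these shifts was not tested. Among the genes named in the text, 6 lineage genes changed sign in edgeR when 1 library was left out: Runx2 (-0.55 to 0.43), Sp7 (-0.68 to 1.87), Alpl (-0.79 to 1.48), Bglap (-2.52 to 0.00265), Sox9 (-0.15 to 0.41) and Col2a1 (-1.58 to 0.70). Sp7 was 0.78 with the replicate block and 0.75 with the block and GC correction, and Alpl 0.26 and 0.13. Sox9 was -0.18 without OA2 and O1 and -0.28 without the pools, and Col2a1 0.92 without the pools. Of the bone genes chosen after their values were seen, Ibsp was -1.11 to 2.54 (-1.37 without the pools) and Panx3 -1.06 to 2.96 (-1.49 without the pools). Pth1r, at 0.00129, turned negative with RLE factors (-0.013), with only the 6 libraries (-0.000137), without OA2 and O1 (-0.047), without the pools (-0.71), with the GC correction (-0.29) and in DESeq2 (-0.013), and was -0.57 to 2.5 when 1 library was left out. Other genes given with values kept their direction in edgeR. With the block, Pparg (0.97, padj 0.0213), Klf2 (padj 0.023), Pdgfrb (padj 0.0121) and Eng (padj 0.0158) came past DESeq2's threshold, while H19, Epb4.1l4b, Tnfrsf9 and Zwint no longer did. Among the genes no longer past it with only the 6 libraries were Zfp423 (padj 0.078), Col15a1 (0.0835), Pde2a (0.109) and H19 (0.239). Cd34 (0.0847), Osgin1 (0.0847), Plekhn1 (0.0713), Itga7 (0.172), Itga2b (0.245), Fgd6 (0.673) and Zwint (0.682) were also among them. The median of all genes was -0.075 with TMM and -0.099 with RLE factors. Few reads stand behind the lower group of some called genes, which limits the precision of their fold changes: Ms4a4d had 0 to 5 and Ucp2 4 to 12 reads in O, and Srpx 4 to 18 in OA.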
